A study of Arabidopsis thaliana with 4 samples.

Results

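The genes for the actin ACT11, the alpha-tubulin TUA6 and the beta-tubulins TUB5, TUB7 and TUB9 of Arabidopsis thaliana were followed in polysomal and in non-polysomal RNA, from plants without stress and from plants under dehydration. They were chosen with earlier results of these data known, so their ranks among all probe sets are descriptions only. By name, the platform annotation of the Affymetrix ATH1 array gave 5 probe sets to these 5 genes. In all it held 22810 probe sets and 13355 singly named genes. Each gene was named by 1 probe set only, so no second probe set of the same gene was at hand. RNA of unstressed plants was hybridized as a non-polysomal sample, in which a transcript is free or carries a single ribosome, and as a polysomal sample, in which it carries more. RNA of dehydrated plants was divided in the same way, which gave 4 groups with 1 array each. The labels name no tissue, accession, mutant, age or duration of the dehydration, so a difference from fewer cells of a type cannot be told apart from one due to less RNA per cell. Further actin control probe sets on the array, 6 in number, are given beside the members.

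Actin polymerizes into filaments along which vesicles and organelles move and which guide tip growth. Alpha- and beta-tubulin form a dimer, the building block of microtubules, and the cortical microtubules of a plant cell steer the deposition of cellulose in the growing wall. Plants carry several genes for each of these proteins, with differing expression among organs. ACT11 (AT3G12110) belongs to the actins known best from reproductive and rapidly elongating tissue. TUA6 (AT4G14960) is an alpha-tubulin of vegetative tissue whose fusion to a fluorescent protein is widely used to see plant microtubules. TUB5 (AT1G20010), TUB7 (AT2G29550) and TUB9 (AT4G20890) encode beta-tubulin. A tubulin dimer needs both chains, so the alpha- and beta-tubulin genes are described apart.

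The signals are intensities on a linear scale, scaled by the authors to an equal mean on each array, so that any ratio is set against the mean transcript and is no share of a transcript. The median signal of the arrays lay between 185.55 and 249.6. Signals under 69.9 were raised to that value before the log2 was taken, and none of the 5 members was under it on any array. Probe sets counted as measured were the 11373 in the brighter part by mean log2 signal, at or above the median of all but the controls, and all 5 members passed. With 1 array per group no difference was tested and no p-value is given. As a yardstick, the SD between the log2 differences of 2 probe sets of the same gene, over 46 genes, was 0.44 to 0.60 in the 5 comparisons made. It holds only the spread between probe sets on the same arrays, and leaves out that between plants, RNA preparations and hybridizations, so it cannot show that a difference exceeds replicate error. Hybridization was done in 2 batches, the unstressed arrays in the first and the dehydration arrays in the second, so dehydration and batch cannot be told apart, while each polysomal to non-polysomal ratio was formed within a batch. Equal medians in place of equal trimmed means moved the median of all measured probe sets by 0.37 in the unstressed ratio, 0.26 in the dehydrated ratio, -0.11 in the change of ratio and 0.17 in the effect of dehydration on non-polysomal RNA. The corresponding shifts under scaling on the spiked hybridization controls were 0.48, 0.10, -0.37 and 0.31, and quantile normalization moved the unstressed ratio by 0.11. The share of at least 2-fold differences lying on the high side went from 41.9% to 76.1% under median and 81.8% under hybridization control scaling in the unstressed ratio, and from 43.8% to 69.5% and 54.9% in the dehydrated ratio. In the change of ratio it went from 63.3% to 41.2% and 10.6%, and to 53.3% under quantile normalization. In the effect of dehydration on non-polysomal RNA it went from 48.6% to 69.0% under median and 81.8% under hybridization control scaling.

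ACT11 had the widest spread of the 5 genes. Its signal was 274.2 in unstressed non-polysomal RNA and 627.3 in unstressed polysomal RNA, against 135.1 and 117.7 in the same fractions of dehydrated plants. Both dehydration arrays were thus below both unstressed arrays, and the unstressed polysomal array stood highest. The highest signal was 5.33 times the lowest, and 4.62% of measured probe sets spanned a wider range. The lowest signal was 1.68 times the lower limit, and the 27 probe sets for unspiked bacterial sequences reached 70.8 at most, so the dehydration signals of ACT11 were low but above that level. The step between the dehydration arrays was 0.20 on the log2 scale, under the spread between probe sets of the same gene, while the other steps in the order were 1.19 and 1.02.

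TUA6 was ordered by fraction. It gave 5019.5 in unstressed and 4636.3 in dehydrated non-polysomal RNA, and 2608.8 in unstressed and 2014.9 in dehydrated polysomal RNA. Both non-polysomal arrays were above both polysomal ones. The step between the fractions was 0.83 on the log2 scale, whereas those within a fraction were 0.11 and 0.37.

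Among the beta-tubulin genes TUB5 had an order of its own, while TUB7 and TUB9 differed only in the order of their polysomal arrays. TUB5 had a signal of 991.1 in unstressed non-polysomal, 1472.3 in unstressed polysomal, 681.8 in dehydrated non-polysomal and 986.8 in dehydrated polysomal RNA. In either condition the polysomal array was the higher one, in either fraction the unstressed array was, and the unstressed non-polysomal and dehydrated polysomal arrays were 0.0063 apart on the log2 scale.

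TUB7 had 244.8 in unstressed non-polysomal and 468.2 in unstressed polysomal RNA, and 335 and 345.5 in the same fractions under dehydration. The dehydration arrays lay between the unstressed ones and were 0.045 apart on the log2 scale.

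TUB9 had 727.4 in unstressed non-polysomal and 1293.3 in unstressed polysomal RNA, and 990.5 and 1307.7 in the same fractions under dehydration. The polysomal arrays were the higher ones and were 0.016 apart on the log2 scale. The order of these polysomal arrays turned under quantile normalization (-0.031) and hybridization control scaling (-0.052), to that of TUB7. From lowest to highest array TUB7 spanned 1.91-fold and TUB9 1.80-fold, near the 1.96-fold of the median measured probe set, against 2.16-fold for TUB5 and 2.49-fold for TUA6.

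**Figure D1:**
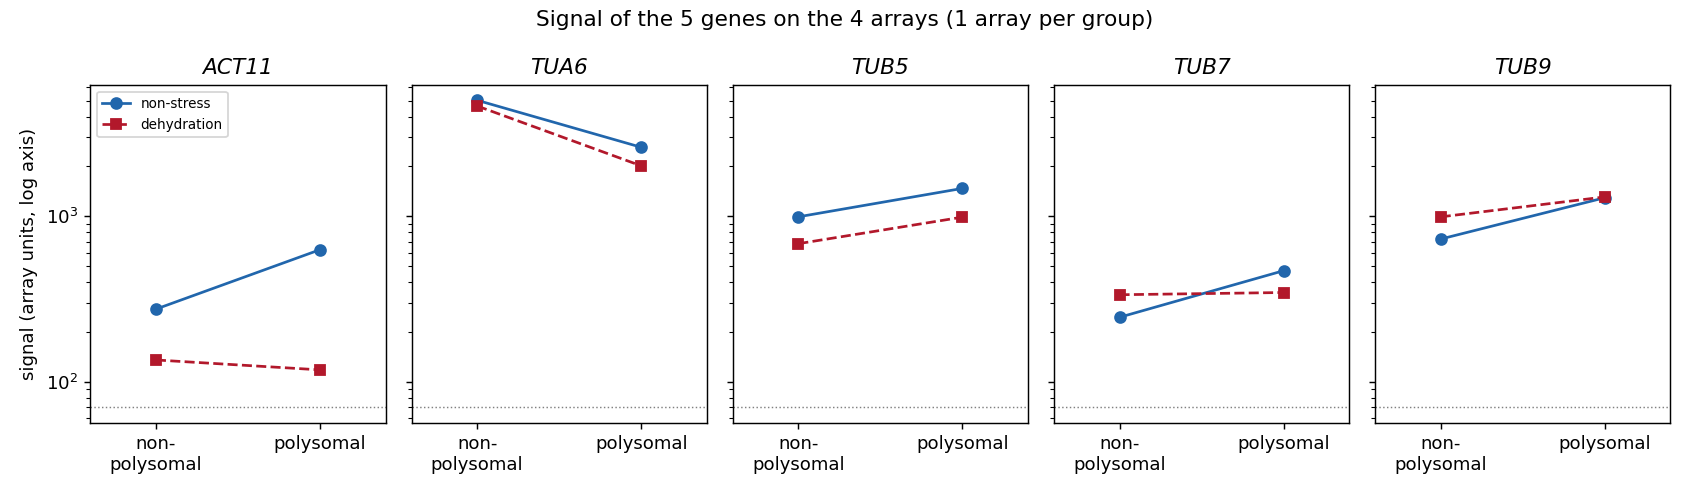
Signal of each gene (log axis) in non-polysomal and polysomal RNA of unstressed (blue circles) and dehydrated plants (red squares), 1 array per point, with the lower limit of 69.9 as a dotted line. The red points of ACT11, at 135.1 and 117.7, lie below its blue ones, the lines of TUA6 go down from non-polysomal to polysomal RNA in both conditions, and the lines of TUB7 cross.

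The ratio of polysomal to non-polysomal signal in unstressed plants compares how far transcripts were represented among those on several ribosomes. ACT11 was 1.19 higher on the log2 scale in polysomal RNA, or 2.29-fold. TUB7 was 0.94 higher, TUB9 0.83 higher and TUB5 0.57 higher. TUA6 was on the other side, at -0.94. The SD between probe sets of the same gene was 0.60 in this comparison, larger than the value of TUB5. Of the 5 members 1, ACT11, was at least 2-fold higher, where 8.56% of measured probe sets were, and none was at least 2-fold lower, where 11.9% were. The median over the members was 0.83, against -0.065 over all measured probe sets. Relative to that background median, ACT11 stood at 1.26, TUB7 at 1.0, TUB9 at 0.89, TUB5 at 0.64 and TUA6 at -0.88. Scaling arrays by a constant moves the median itself but leaves these differences unchanged. A higher ratio than that of ACT11 was seen for 5.30% of measured probe sets, than that of TUB7 for 9.82%, and a lower one than that of TUA6 for 13.1%. Scaling decided which beta-tubulin genes passed 2-fold: under hybridization control scaling TUB7 was at 1.41, TUB9 at 1.31 and TUB5 at 1.05. The value of TUA6 shrank to -0.57 when medians were made equal. With the hybridization controls as reference it shrank to -0.47. Both are smaller in size than the SD of 0.60 between probe sets of the same gene. Quantile normalization instead took TUA6 to -1.16, past the 2-fold limit on the low side.

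Under dehydration the same ratio was spread less widely on the high side. TUB5 was 0.53 higher in polysomal RNA and TUB9 0.40 higher. TUB7 was nearly level, at 0.045. TUA6 was at -1.20, or 2.30-fold lower in polysomal RNA, and 7.73% of measured probe sets had a lower ratio. ACT11 was at -0.20, a direction that median scaling (0.058) and quantile normalization (0.14) turned, and at -0.16 relative to the median of all measured probe sets. TUA6 was the only member at least 2-fold lower, where 11.6% of measured probe sets were, and none was at least 2-fold higher, where 9.06% were. The median over the members was 0.045, against -0.040 over all measured probe sets. TUA6 was at -0.95 under median scaling and at -1.16 relative to the background median. The SD between probe sets of the same gene was 0.51 in this comparison, larger in size than the values of TUB9, TUB7 and ACT11.

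The change of the ratio between conditions asks which transcripts lost or gained polysomal signal relative to non-polysomal signal under dehydration. It is built from the same 4 arrays as the ratios above and is no independent evidence. ACT11 changed by -1.39 on the log2 scale, its ratio going from 1.19 to -0.20, and 37 of 11373 measured probe sets (0.325%) had a lower value. TUB7 was at -0.89, from a ratio of 0.94 to one of 0.045, and 2.55% of measured probe sets were lower. TUB9 was at -0.43, TUA6 at -0.26 and TUB5 at -0.038. ACT11 was the only member at least 2-fold lower, where 1.62% of measured probe sets were, and none was at least 2-fold higher, where 2.8% were. The median was -0.43, against 0.013 over all measured probe sets. All 5 members had a value below 0, as did 48.9% of measured probe sets. Relative to the median of all measured probe sets, TUB5 was at -0.051, and at 0.017 under quantile normalization. The values of TUB9, TUA6 and TUB5 were smaller than the SD between probe sets of the same gene in this comparison, 0.60. TUB7 passed 2-fold under median (-1.004), quantile (-1.07) and hybridization control scaling (-1.26).

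In polysomal RNA the effect of dehydration was largest, among the 5 members, for ACT11. It was 2.41 lower on the log2 scale in dehydrated plants, or 5.33-fold lower, and 39 of 11373 measured probe sets (0.343%) had a lower value. TUB5 was at -0.58, TUB7 at -0.44 and TUA6 at -0.37. TUB9 was level, at 0.016, a direction that quantile normalization (-0.031) and hybridization control scaling (-0.052) turned. Of the members 1, ACT11, was at least 2-fold lower, where 5.58% of measured probe sets were, and none at least 2-fold higher, where 6.36% were. The median over the members was -0.44, against -0.0040 over all measured probe sets. The SD between probe sets of the same gene was 0.44 in this comparison.

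In non-polysomal RNA the beta-tubulin genes parted. TUB7 was 0.45 higher under dehydration and TUB9 0.45 higher, while TUB5 was at -0.54. TUA6 was at -0.11, a direction that median scaling (0.056) and hybridization control scaling (0.19) turned, and at -0.096 relative to the median of all measured probe sets. ACT11 was at -1.02, or 2.03-fold lower. That made it the only member at least 2-fold lower, where 4.56% of measured probe sets were, and none was at least 2-fold higher, where 4.32% were. ACT11 stood close to that limit, at -0.85 under median, -0.88 under quantile and -0.72 under hybridization control scaling, and at -1.003 relative to the background median. With the lower limit at percentile 50, which lies above its dehydration signals, only a bound of -0.40 was left. The median over the members was -0.11, against -0.018 over all measured probe sets. The SD between probe sets of the same gene was 0.48 in this comparison, larger than the values of TUB7, TUB9 and TUA6.

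**Figure D2:**
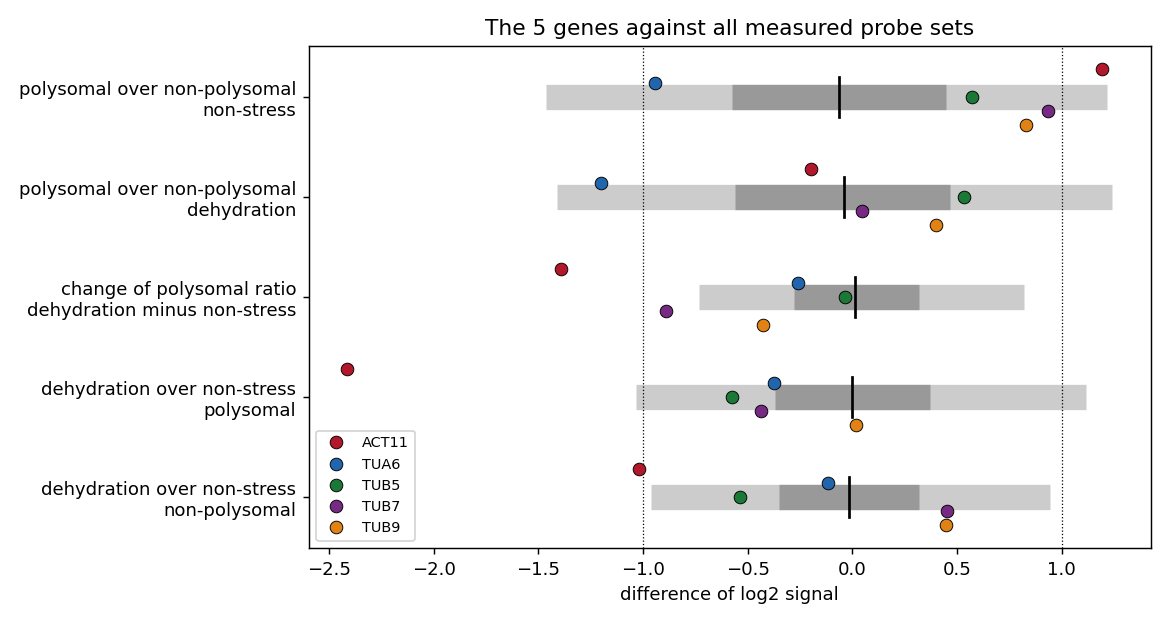
Difference of log2 signal for the 5 genes (coloured points, spread vertically only for legibility) in the 5 comparisons, over the middle of all 11373 measured probe sets (dark band from percentile 25 to 75, light band from percentile 5 to 95, black line at the median) with dotted lines at 2-fold. ACT11 lies outside the light band in the change of ratio (-1.39) and in both effects of dehydration (-2.41 and -1.02), and TUB7 in the change of ratio (-0.89).

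The actin control probe sets gave another view of actin transcripts. The array carries 2 series of them, each with a probe set for the 5′ part, the middle and the 3′ part of an actin transcript, and the suffixes of 4 of the 6 mark probes that can match several transcripts of the family. The annotation used here does not say which actin gene or genes they were designed on, so they are not counted as independent of each other. In the second series the 3′ probe set had signals of 4667.1 and 7854.2 in unstressed non-polysomal and polysomal RNA, and of 6653.8 and 10748.5 in the same fractions under dehydration. The middle probe set had 4610 and 8838.7 without stress, and 8222.6 and 11466.4 under dehydration. In all 3 probe sets of this series the unstressed non-polysomal array was lowest and the dehydrated polysomal array highest.

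For the effect of dehydration in polysomal RNA the probe sets of the second series lay between 0.38 and 0.51 on the log2 scale, on the other side of 0 from ACT11 (-2.41). The middle and 3′ probe sets of the first series were at 0.49 and 0.62. The 5′ probe set of the first series, whose suffix marks probes picked under relaxed design rules, differed from these. Its signal was 1179.7 and 1836.8 in unstressed non-polysomal and polysomal RNA, and 946.9 and 890.9 under dehydration, which put it at -1.04 in polysomal and -0.32 in non-polysomal RNA. Its order over the 4 arrays was that of ACT11, with both dehydration arrays lowest and the unstressed polysomal array highest. The unstressed polysomal to non-polysomal ratio was above 0 in every actin control, from 0.62 to 1.09, as for ACT11 (1.19). This was not particular to actin. The glyceraldehyde phosphate dehydrogenase controls were at 0.42 to 1.30 and the ubiquitin controls at 0.52 to 1.41, and 46.8% of measured probe sets were above 0. In the actin controls the change of ratio under dehydration lay between -0.73 and -0.059, except for 0.18 in the 3′ probe set of the first series.

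The ratio of 3′ to 5′ signal, which is used to judge how complete the labelled RNA was, therefore depended on the series. In the first it was 3.08 and 3.04 in unstressed non-polysomal and polysomal RNA, and 5.21 and 9.67 under dehydration. In the second it was 2.58 and 2.05 without stress, and 1.97 and 1.97 under dehydration. The ratio for the glyceraldehyde phosphate dehydrogenase controls also differed in direction between series. In the same order of arrays it was 2.24, 1.22, 1.83 and 1.08 in the first, lower in polysomal RNA in both conditions, and 0.935, 1.12, 0.726 and 0.835 in the second, higher in polysomal RNA in both. For the ubiquitin controls it lay between 1.53 and 1.98 over both series. In the first actin series the ratio was higher under dehydration, where ACT11 was lower, and the part of the 3′ to 5′ ratio in the values of ACT11 was not tested.

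**Figure D3:**
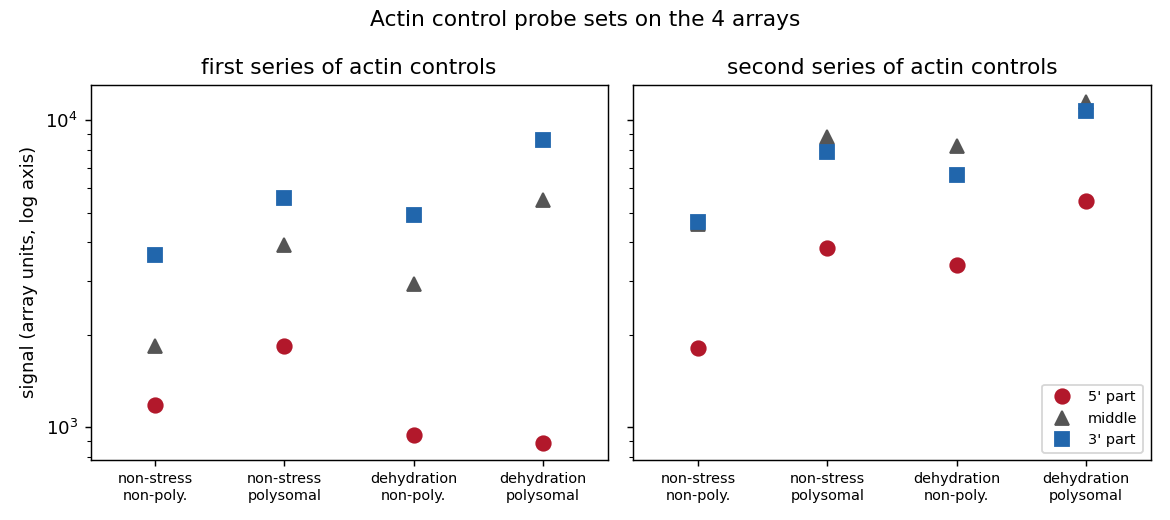
Signal (log axis) of the actin control probe sets on the 4 arrays, first series left and second series right, for the 5′ part (red circles), the middle (grey triangles) and the 3′ part (blue squares), 1 array per point. The 5′ points of the first series go down under dehydration, to 946.9 and 890.9, while the other probe sets are highest on the dehydrated polysomal array.

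Similarity between genes was measured as the root mean square difference of their log2 signals over the 4 arrays, after each gene had been centred on its own mean. Among the members TUB7 and TUB9 were closest, at 0.17. TUB5 lay 0.36 from TUB7 and 0.41 from TUB9. TUA6 lay 0.81 to 0.88 from the beta-tubulin genes, and ACT11 0.67 to 1.01 from them and 1.11 from TUA6. ACT11 lay 0.56 from the 5′ actin control probe set of the first series and 1.15 to 1.25 from the other 5. That 5′ probe set lay closer to several tubulin genes than to ACT11. It was 0.11 from TUA1, another alpha-tubulin gene, 0.23 from TUB5, 0.36 from TUB7 and 0.49 from TUB9. TUB6, a beta-tubulin gene outside the members, was nearly as far from it as ACT11, at 0.55, and TUA6 was farther, at 0.72. With 4 arrays such a value is a description of these hybridizations only.

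Over 5973 other named genes, those with the pattern most like ACT11 were UGT78D1, a flavonol glycosyltransferase gene, at 0.13, AT1G06830 at 0.15 and AT5G42760 at 0.17. UGT78D1 had signals of 535.3 and 1176.4 in unstressed non-polysomal and polysomal RNA, and 211.1 and 221.9 under dehydration, so it too was low on both dehydration arrays and highest on the unstressed polysomal one. Only 8 genes lay within 0.25 of ACT11, whereas 433 to 651 lay that close to each of the tubulin genes. The distance is not scaled by the range of a gene over the arrays. That range was 2.41 on the log2 scale for ACT11 and 0.85 to 1.32 for these tubulin genes. The count is therefore not independent of the wide spread of ACT11. The genes most like TUA6 were AT5G01470 (0.0083), AT2G41760 (0.027) and AT1G71910 (0.031). Those most like TUB5 were AT2G45710 (0.021), AT1G43690 (0.039) and SBPASE (0.041), a Calvin cycle phosphatase. For TUB7 they were AT2G16800 (0.030), AT4G39820 (0.041) and AT5G05990 (0.082). For TUB9 they were petA (0.016), the plastid gene of cytochrome f, AT5G20290 (0.028) and AT3G50685 (0.033).

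Other cytoskeleton genes were looked up in lists of actins, tubulins, actin-binding and microtubule-associated proteins. The annotation left most of the actins and tubulins unnamed. In the actin-binding and microtubule-associated lists most named genes did not pass the filter. Of the 9 listed actin genes 2 were named, and the other, ACT12, had signals of 6.6 to 18.4, under the lower limit on every array. Of 17 listed tubulin genes 7 were named and 6 measured. TUB6, a further beta-tubulin gene, had 1036.4 and 1924.7 in unstressed non-polysomal and polysomal RNA, and 1586 and 2040.5 under dehydration. It lay 0.065 from TUB9, closer than any member lay to another. TUA1, the alpha-tubulin gene known for expression in pollen, had 471.2 and 693.5 without stress, and 398.1 and 414.6 under dehydration. Its polysomal ratio was 0.56 without stress, on the other side of 0 from TUA6 (-0.94), and 0.059 under dehydration. TUB1 did not pass the filter, with signals of 119.4 to 309.

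The change of ratio under dehydration was below 0 for all 6 measured tubulin genes, from -0.89 for TUB7 to -0.038 for TUB5, with TUB6 at -0.53 and TUA1 at -0.50, where 48.9% of measured probe sets were below 0. Of the 6, none was at least 2-fold different. In unstressed plants 5 of the 6 had a ratio above 0, where 46.8% of measured probe sets did, and again 5 of the 6 under dehydration, where 47.9% did, TUA6 being the exception both times.

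Of the actin-binding list, 5 of 17 named genes were measured. NET1B, of the NETWORKED family that binds actin filaments, had a ratio of 1.13 without stress and 0.98 under dehydration, with signals of 252.1 and 552.5, then 249.2 and 490.2. XIJ, a class XI myosin that moves along actin, had a ratio of -1.57 without stress and -1.50 under dehydration. Its signals were 588.9 and 197.8 in unstressed non-polysomal and polysomal RNA, and 455.3 and 161.1 under dehydration. The myosin genes XI-I and XIH had ratios of -0.84 and -0.32 without stress, and 0.17 and -0.60 under dehydration. XI-I was the list's only gene with an at least 2-fold change of ratio, 1.004, in the direction away from ACT11. BRK1, a subunit of the complex that activates actin branching, was at 0.50 and 0.011. In the change of ratio 2 of the 5 were above 0 and 3 below, with a median of -0.16. Of all measured probe sets 51.1% were above 0 and 48.9% below.

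In the microtubule-associated list 4 of 9 named genes were measured and none was at least 2-fold different in any comparison. Of all measured probe sets 1.62% to 11.9% were, depending on the comparison and the direction. SPR1, a protein of microtubule plus ends that guides directional growth, had ratios of 0.61 and 0.79 without stress and under dehydration, and its relative SP1L3 0.53 and 0.26. KINESIN-13A, a protein of the kinesin family, had 0.23 and 0.56. PFI, which folds tubulin as cofactor E, had -0.67 and -0.073. In the change of ratio 3 of these 4 were above 0, where 51.1% of measured probe sets were. The median was 0.25, against -0.46 for the 6 tubulin genes and 0.013 for all measured probe sets. The SD between probe sets of the same gene was 0.5956 in this comparison. In the tubulin and microtubule-associated lists only TUB7 (-0.89) and, narrowly, PFI (0.5996) exceeded it in size. In the actin and actin-binding lists ACT11 (-1.39) and XI-I (1.004) did.

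**Figure D4:**
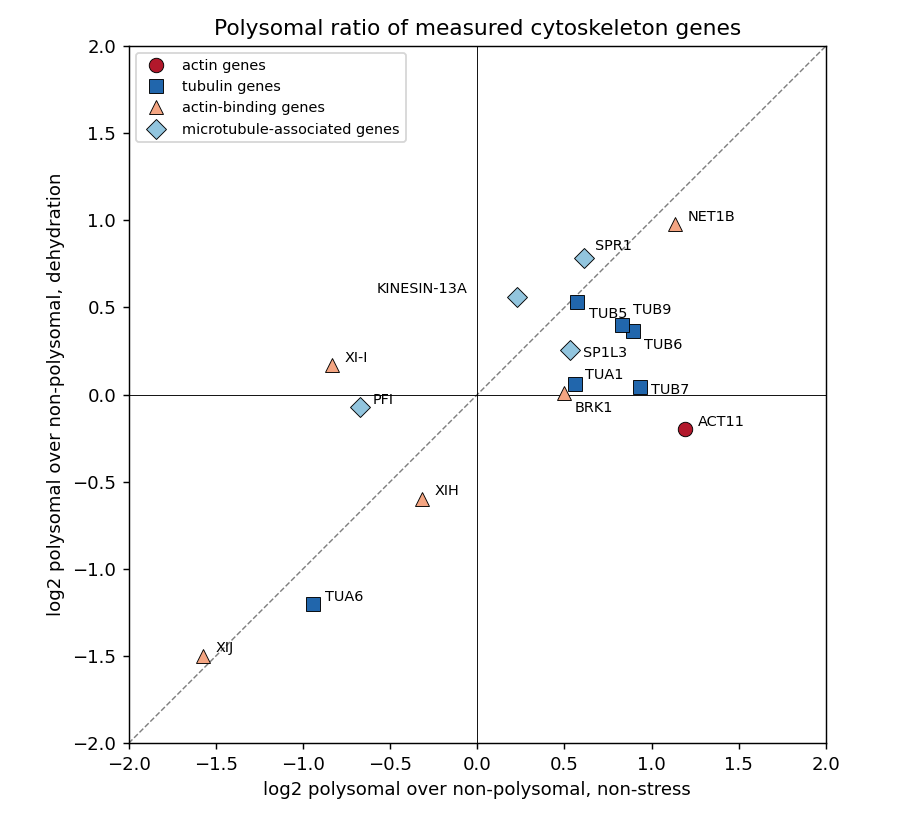
Log2 ratio of polysomal to non-polysomal signal without stress (horizontal) and under dehydration (vertical) for the measured genes of the actin (red circle), tubulin (blue squares), actin-binding (orange triangles) and microtubule-associated lists (light blue diamonds), with the line of equal ratios dashed. ACT11 and all 6 tubulin genes lie below the dashed line, ACT11 farthest (-1.39) and TUB5 nearest to it (-0.038), with XI-I (1.004) above it.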

How the data were processed

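The deposited table holds a signal intensity per probe set on a linear scale, and its mean on every array, without the 2% of values at either end, is 500, so the authors had scaled it. Which program summarised the probes is not stated in the labels or headers. The chip type and the other entries of the experiment record, which are not measurements, were read per the file headers. Here the trimmed means were made exactly equal, and a lower limit was set at the median over arrays of percentile 25 (69.9) before log2 values were computed. The filter (mean log2 signal at or above 7.74) and the counts leave out 64 control probe sets. Groups came from the labels. The 5 comparisons are differences of log2 signal, with no test.

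Probe sets with 1 gene symbol (13513, of which 13436 matched the TAIR10.1 gene table) were named, those with several (503) or none were not. Genes named are the 5 members, the actin controls, listed cytoskeleton genes that were measured, and the 3 most similar genes of each member. TUB1 and ACT12, to account for the lists, and NET1D, after its values were seen, were named beyond that rule. Members and lists were chosen with earlier results of these data known. The lists are by symbol and by locus from general knowledge. Scaling, lower limit and filter were varied. The calculations were tested on simulated arrays (Python 3.11.15, pandas 2.3.3, SciPy 1.17.1).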

Additional observations from a re-analysis of the deposited data

Results flagged for a closer look

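For ACT11 the polysomal to non-polysomal ratio had opposite signs in the 2 conditions, 1.19 without stress and -0.20 under dehydration, a difference of -1.39 on the log2 scale. The sign under dehydration turned under median scaling and quantile normalization. For TUB7 the effect of dehydration had opposite signs in the 2 fractions, -0.44 in polysomal and 0.45 in non-polysomal RNA, a difference of -0.89. Each rests on 1 array per group, and neither difference was tested.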

How the results depend on the processing

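The medians over the 5 members moved by less than the SD between probe sets of the same gene under median scaling, quantile normalization, hybridization control scaling and a lower limit at percentile 10 or 50. Of 125 values of single members under these alternatives, 2 moved by more. Both are of ACT11 with the limit at percentile 50, a signal above its dehydration signals, which makes them bounds: -1.60 in polysomal and -0.40 in non-polysomal RNA for the effect of dehydration. The number of probe sets at least 2-fold different was 2321 for the unstressed ratio (3731 with no filter, 1229 with the filter at percentile 75) and 2353 for the ratio under dehydration (1244 with the filter at percentile 75). It was 502 for the change of ratio (972 under hybridization control scaling, 1219 with no filter, 181 with the filter at percentile 75). For the effect of dehydration it was 1358 in polysomal RNA (714 with the filter at percentile 75) and 1010 in non-polysomal RNA (1629 with no filter, 543 with the filter at percentile 75). The filters change how many probe sets are counted. Averaging several probe sets of a gene could not be done, each member having 1. No paired analysis was possible because each group has 1 array. The number of arrays limits the precision, and ACT11 under dehydration lay nearest the lower limit.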

Other observations

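The control probe sets for glyceraldehyde phosphate dehydrogenase, an enzyme of glycolysis, had a polysomal to non-polysomal log2 ratio of 0.42 to 1.30 without stress and 0.48 to 1.24 under dehydration over 5 probe sets. The change of ratio between conditions was between -0.059 and 0.058 for these 5. The 5 ubiquitin control probe sets had ratios of 0.52 to 1.41 and 0.34 to 1.15, with a change of -0.57 to -0.18.

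Among the cytoskeleton genes under the filter, NET1D, of the NETWORKED family, was chosen after its values were seen. It had signals of 80.1 and 284.9 in unstressed non-polysomal and polysomal RNA, and 101.5 and 376.6 under dehydration, with log2 ratios of 1.83 and 1.89.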
